A study of Mus musculus with 12 samples.

Results

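The 48 mitosis and cytokinesis genes described here encode the cyclins, kinases, checkpoint proteins, motor proteins, kinetochore and condensin subunits and cytokinesis factors that carry a cell through division. They were chosen by name as a module and looked up by Entrez gene identifier in the deposited count tables, and all 48 were found among 27179 genes listed there. RNA was sequenced from sorted mouse thymic epithelial cells, either cortical (cTEC) or medullary with high MHC class II (mTEChi), in 12 libraries forming 4 groups of 3. The control groups came from C57BL/6 mice of the genotype Foxn1cre+/+ Hoil lox/lox, and the HOIL-deficient groups from C57BL/6 mice of the genotype Foxn1creT/+ HOIL lox/lox. Both genotypes therefore carried floxed Hoil alleles, and the labels describe the deletion as specific to thymic epithelium, with Cre driven by Foxn1, the transcription factor gene of that epithelium. Since the Cre allele and the deletion went together, they cannot be told apart. The labels give no ages, and replicate 3 of each HOIL-deficient group was female while the other libraries were male. HOIL, encoded by Rbck1, is a subunit of the linear ubiquitin chain assembly complex, which attaches linear ubiquitin chains in signalling to NF-kappaB.

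Mitotic entry is driven by cyclin A and cyclin B bound to the kinase Cdk1, with Plk1 and the Aurora kinases building the spindle and correcting its attachments. The spindle checkpoint, with Bub1, Bub1b, Mad2l1 and Ttk, holds back the anaphase-promoting complex until every kinetochore is attached. Cdc20 and the ubiquitin-conjugating enzyme Ube2c then let this complex destroy cyclin B and securin, separase cuts cohesin, and the central spindle and contractile ring divide the cell. Transcription of most of these genes peaks in G2 and mitosis under B-MYB (Mybl2), FOXM1 and the MuvB core, and is silenced in resting cells by the DREAM complex of MuvB with E2F and pocket proteins. In the thymus, mTEChi are an epithelial population with continual turnover, and developing thymocytes, which lie in close contact with cTECs, divide fast.

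The deposited tables held between 7941217 and 14274333 counts a library, and levels below are counts in every 1000000 of that total (CPM). Rbck1 was read at 183, 236 and 221 CPM in control cTECs and at 22, 33 and 22.5 CPM in HOIL-deficient cTECs. In mTEChi it was read at 114, 128 and 108 CPM in controls and 10.9, 11.7 and 23.3 CPM in HOIL-deficient libraries, so every library matched the genotype in its label. Differences between groups were tested with edgeR's quasi-likelihood test over 19398 genes, and a gene is called where its Benjamini-Hochberg adjusted p is under 0.05. All 48 genes passed the filter on low counts, and the lowest single count was 13, for Espl1 in control mTEChi replicate 1 and for Mybl2 in HOIL-deficient cTEC replicate 2. Several libraries stood apart in ways the values below must be read with. The 26 thymocyte genes summed to 6126, 1937 and 2818 CPM in control cTECs and to 886, 764 and 1524 CPM in HOIL-deficient cTECs. In mTEChi the same sums were 425, 331 and 302 CPM in controls and 379, 375 and 608 CPM in HOIL-deficient libraries, and none of the 26 genes was at 0 in either cell type. The control mTEChi libraries also gave 8.93, 3.19 and 4.35% of their counts to 15 mitochondrial genes, against 1.71, 1.90 and 1.91% in HOIL-deficient mTEChi. Malat1, a nuclear RNA, took 5.13, 3.29 and 3.97% of control mTEChi counts and 0.713, 0.858 and 0.983% of HOIL-deficient ones. In such bulk samples, fewer dividing cells and less of these RNAs in each cell cannot be told apart.

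The promoters of the module are shown because its genes moved together in mTEChi, and because they share sequence features that played no part in choosing them. Promoters of 40 of the 48 genes were in the RefSeq table for GRCm38.p6, each from 250 bases before to 50 bases after an annotated start. TTTGAA, a form of the cell cycle genes homology region (CHR) bound by MuvB complexes, was found on either strand in 30 of the 40 (75%). Among all 27025 genes of that table the share was 20.2%. CCAAT, the box bound by NF-Y, was found on either strand in 28 (70%), against 41.1% of all genes, and both motifs in 25 (62.5%), against 7.97%. The 2 motifs can share at most 1 base, and a TTTGAA began within 50 bases of the start in 27 of the 40 (67.5%), against 5.72% of all genes. The windows below belong to Cdk1 (chr10:69352863-69353162, reverse strand), Ccnb2 (chr9:70421505-70421804, reverse strand), Plk1 (chr7:122159185-122159484, forward strand), Cdc20 (chr4:118437294-118437593, reverse strand) and Kif23 (chr9:61946750-61947049, reverse strand), which all rose in HOIL-deficient mTEChi. The starts these 5 windows are built on lie at the start of the gene as counted or, for Kif23, 11 bases inside it. Capitals mark both motifs on either strand, so that the CHR can also appear as TTCAAA and the box bound by NF-Y also as ATTGG. Each sequence runs 5′ to 3′ on the gene's strand.
Cdk1: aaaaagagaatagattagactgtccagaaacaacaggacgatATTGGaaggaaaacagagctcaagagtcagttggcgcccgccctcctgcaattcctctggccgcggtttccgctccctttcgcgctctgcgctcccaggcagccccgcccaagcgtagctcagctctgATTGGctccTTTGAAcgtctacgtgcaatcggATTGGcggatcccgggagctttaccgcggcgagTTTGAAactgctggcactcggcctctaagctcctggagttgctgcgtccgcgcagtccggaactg
Ccnb2: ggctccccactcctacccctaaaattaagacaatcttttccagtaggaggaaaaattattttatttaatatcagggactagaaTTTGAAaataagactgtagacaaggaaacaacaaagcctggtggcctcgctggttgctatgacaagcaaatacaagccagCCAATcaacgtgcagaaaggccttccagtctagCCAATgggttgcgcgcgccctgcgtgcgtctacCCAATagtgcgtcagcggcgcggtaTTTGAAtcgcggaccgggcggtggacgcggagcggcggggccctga
Plk1: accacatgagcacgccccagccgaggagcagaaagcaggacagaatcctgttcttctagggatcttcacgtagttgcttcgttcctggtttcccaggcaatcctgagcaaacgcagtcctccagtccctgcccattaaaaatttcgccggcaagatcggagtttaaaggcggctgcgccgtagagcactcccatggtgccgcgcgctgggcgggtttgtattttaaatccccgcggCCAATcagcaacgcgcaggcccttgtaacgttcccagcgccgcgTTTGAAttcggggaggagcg
Cdc20: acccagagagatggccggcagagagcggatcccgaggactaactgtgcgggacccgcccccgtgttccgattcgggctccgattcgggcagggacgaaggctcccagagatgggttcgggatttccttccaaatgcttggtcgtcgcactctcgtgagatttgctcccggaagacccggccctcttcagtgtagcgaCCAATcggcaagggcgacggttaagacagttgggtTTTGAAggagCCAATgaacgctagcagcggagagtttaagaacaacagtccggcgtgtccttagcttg
Kif23: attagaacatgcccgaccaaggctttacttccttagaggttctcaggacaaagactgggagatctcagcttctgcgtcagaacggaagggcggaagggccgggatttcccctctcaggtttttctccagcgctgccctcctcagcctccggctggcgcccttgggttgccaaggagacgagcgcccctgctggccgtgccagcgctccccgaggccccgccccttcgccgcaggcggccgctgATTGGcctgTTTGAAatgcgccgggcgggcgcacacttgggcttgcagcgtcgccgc
Cdk1 and Ccnb2 each held 2 TTTGAA and 3 CCAAT matches. Plk1 and Kif23 held 1 of each, and Cdc20 held 1 TTTGAA and 2 CCAAT. The windows of 7 genes held no match to these letters, and 5 of these, Birc5, Mad2l1, Ncaph, Nuf2 and Nusap1, rose in HOIL-deficient mTEChi. The others were Mybl2 and Pttg1. For Pttg1 the tabulated start lay 1482 bases inside the gene as counted, so its window does not cover the start of the counted gene and is not shown. In all, 7 of the 40 genes (Aurka, Ect2, Kif2c, Mki67, Mybl2, Ncapd2 and Pttg1) had their tabulated start over 50 bases inside the counted gene. Ccnb1 and Bub1 held CCAAT only, with 2 matches each, as did Cenpe with 1.

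HOIL-deficient mTEChi had more RNA of nearly the whole module than control mTEChi. Of the 48 genes, 43 rose, 1 fell and 4 were not called. Over all tested genes 11.3% were called higher and 8.59% lower. The median log2 fold change was 1.52 over the module and -0.03 over all tested genes. Summed over the module, control mTEChi held 977, 1193 and 1162 CPM and HOIL-deficient mTEChi 2866, 3395 and 2461 CPM, so the groups did not overlap. Leaving mitochondrial genes and Malat1 out of the totals, the sums were 1137, 1276 and 1267 CPM against 2937, 3492 and 2534 CPM. For 45 genes every HOIL-deficient mTEChi library lay above every control library, where 23.8% of all tested genes did so. Pttg1 was the 1 gene with every library below (20.6% of all genes), while Ttk and Espl1 overlapped.

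**Figure D1:**
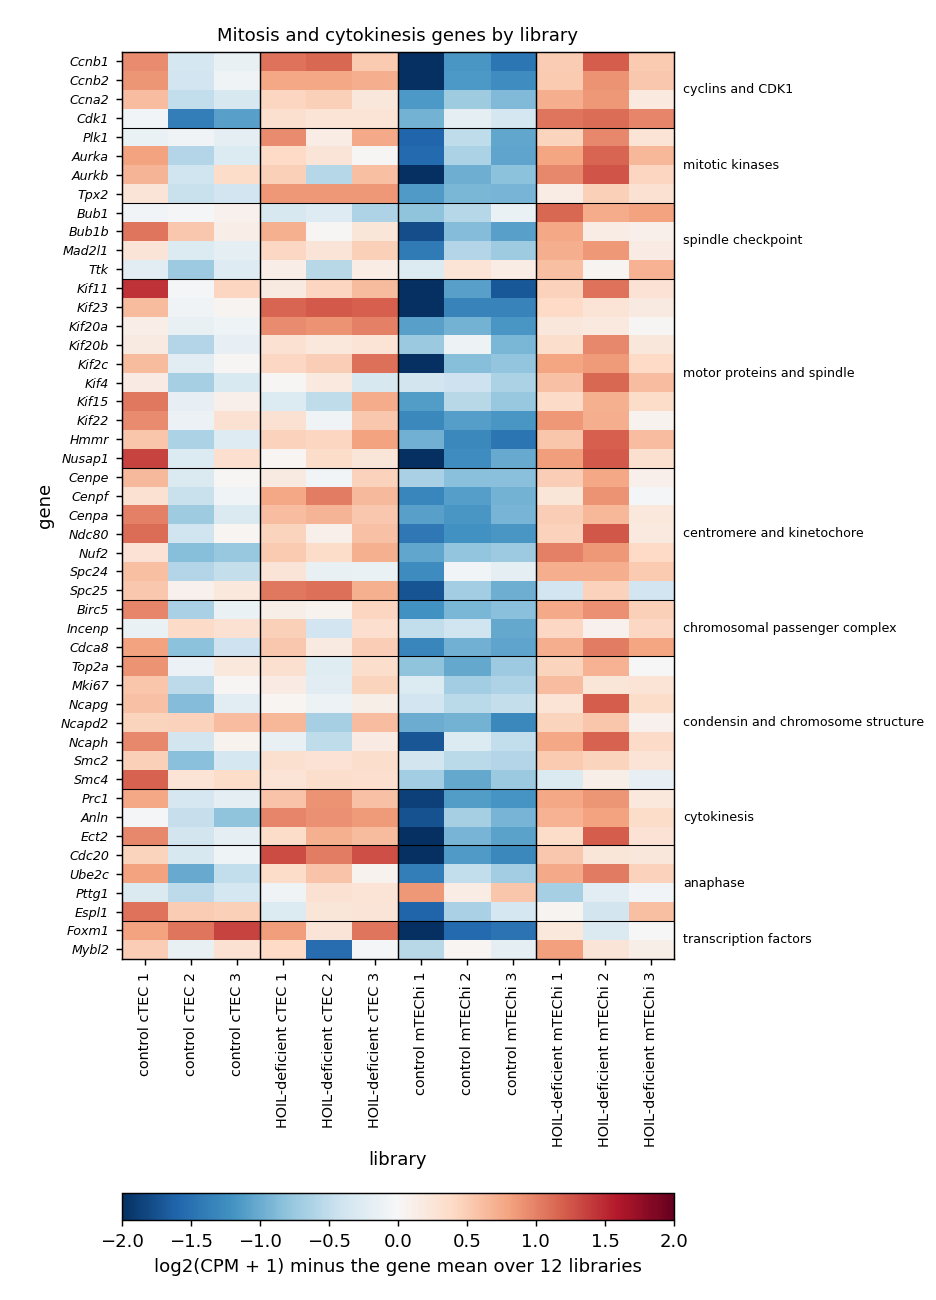
Each row is one of the 48 genes, ordered by role, and each column one of the 12 libraries; colour is log2(CPM + 1) minus the gene's mean over the libraries. Control mTEChi libraries are blue for nearly every gene except Pttg1, HOIL-deficient mTEChi libraries are mostly red, and replicate 1 of control cTECs is redder than the other control cTEC libraries.

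All 4 cyclin and Cdk1 genes rose in HOIL-deficient mTEChi. Ccnb1, which encodes cyclin B1, the activator of Cdk1 at mitotic entry, went from 5.12, 18.7 and 15.2 CPM in control to 61.9, 101 and 62 CPM in HOIL-deficient mTEChi (log2 fold change 2.49 ± 0.43, adjusted p = 0.00189). Ccnb2, the second B-type cyclin, was at 11.9, 27.4 and 25.5 CPM in controls and 89.5, 116 and 89.9 CPM without HOIL (log2 fold change 2.15 ± 0.32, adjusted p = 0.000901). For both cyclins the lowest HOIL-deficient library was above the highest control library by more than the spread within either group, and Ccnb1 had the largest log2 fold change of the module. Cdk1 itself was read at 37.8, 64 and 57.1 CPM in controls and at 156, 161 and 145 CPM in HOIL-deficient mTEChi (log2 fold change 1.49 ± 0.28, adjusted p = 0.00316). Ccna2, encoding cyclin A2, which acts in S phase and G2, rose by 1.49 ± 0.27 on the log2 scale (adjusted p = 0.00253). The annotated span of Ccna2 overlaps Exosc9, and without a stated strand setting reads from the shared stretch cannot be told apart.

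The mitotic kinases rose as a group, 4 of 4. Plk1, the polo-like kinase of centrosome maturation and spindle assembly, was at 6.96, 15.8 and 10.6 CPM in controls and 31.6, 45.1 and 27.7 CPM in HOIL-deficient mTEChi (log2 fold change 1.60 ± 0.30, adjusted p = 0.00274). Aurkb, the kinase of the chromosomal passenger complex, went from 5.73, 12.6 and 14.1 CPM to 51, 63 and 34.9 CPM (log2 fold change 2.15 ± 0.39, adjusted p = 0.00257). In both, replicate 1 was the lowest control and replicate 2 the highest HOIL-deficient library. That order was common in the module: 34 of the 48 genes were lowest in replicate 1 among the control mTEChi libraries, and 33 were highest in replicate 2 among the HOIL-deficient ones. Aurka, the centrosomal Aurora kinase, and Tpx2, which activates it on spindle microtubules, had log2 fold changes of 1.94 ± 0.35 and 1.27 ± 0.20 (adjusted p = 0.00225 and 0.00102).

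Among the spindle checkpoint genes 3 of 4 rose. Bub1, the kinase that recruits checkpoint proteins to kinetochores, was at 5.43, 6.52 and 9.26 CPM in controls and 23.9, 17.7 and 18.6 CPM in HOIL-deficient mTEChi (log2 fold change 1.45 ± 0.29, adjusted p = 0.004). Mad2l1, whose product binds and restrains Cdc20, was read at 23.8, 42.9 and 39.5 CPM and 108, 119.7 and 73 CPM in the same order (log2 fold change 1.45 ± 0.24, adjusted p = 0.00132). Bub1b, encoding BubR1 of the same inhibitory complex, had a log2 fold change of 1.59 ± 0.32 (adjusted p = 0.00412). Ttk, the Mps1 kinase at the top of the checkpoint, was the exception. Its control libraries read 9.93, 15.1 and 13.7 CPM and its HOIL-deficient libraries 19, 12.8 and 20.5 CPM, which overlap (log2 fold change 0.38 ± 0.30, adjusted p = 0.4).

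All 10 motor and spindle genes rose. Kif20a, the MKLP2 motor that carries the chromosomal passenger complex to the central spindle, had the smallest p of the module, with 34.4, 38.1 and 32.4 CPM in controls and 86.4, 84.5 and 75.3 CPM in HOIL-deficient mTEChi (log2 fold change 1.17 ± 0.15, adjusted p = 0.00034). Its span overlaps Brd8 and Cdc23 in the annotation. Kif23, the MKLP1 motor of the centralspindlin complex, went from 4.81, 10.9 and 10.9 CPM to 38.6, 35.3 and 32.9 CPM (log2 fold change 1.96 ± 0.28, adjusted p = 0.000573). These 2 motors had tight HOIL-deficient replicates, with none of the libraries near a control value. Kif11, the Eg5 motor that pushes spindle poles apart, went from 7.78, 17.4 and 11.1 CPM to 52.7, 82.1 and 46.9 CPM (log2 fold change 2.28 ± 0.38, adjusted p = 0.00146). Hmmr, a spindle-pole protein that works with Tpx2, was read at 18.2, 14.4 and 12.6 CPM in controls and 54.2, 85.1 and 56.8 CPM without HOIL (log2 fold change 2.04 ± 0.31, adjusted p = 0.000982). Nusap1, which bundles spindle microtubules near chromosomes, went from 8.29, 17.1 and 20.1 CPM to 74.8, 98.7 and 51.9 CPM (log2 fold change 2.26 ± 0.40, adjusted p = 0.00211), and Kif22, a chromokinesin, from 14.1, 16.3 and 15.6 CPM to 66.6, 60.2 and 37.9 CPM (log2 fold change 1.78 ± 0.29, adjusted p = 0.00146). In Kif11, Hmmr, Nusap1 and Kif22 the groups were separate, and replicate 2 was the highest HOIL-deficient library except for Kif22, where replicate 1 was. The remaining motors, Kif2c, Kif4, Kif15 and Kif20b, had log2 fold changes of 2.01, 1.26, 1.37 and 1.08. The call for Kif15 did not hold in any of the 6 fits that each left out 1 mTEChi library, and the call for Kif20b held in 3 of the 6.

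**Figure D2:**
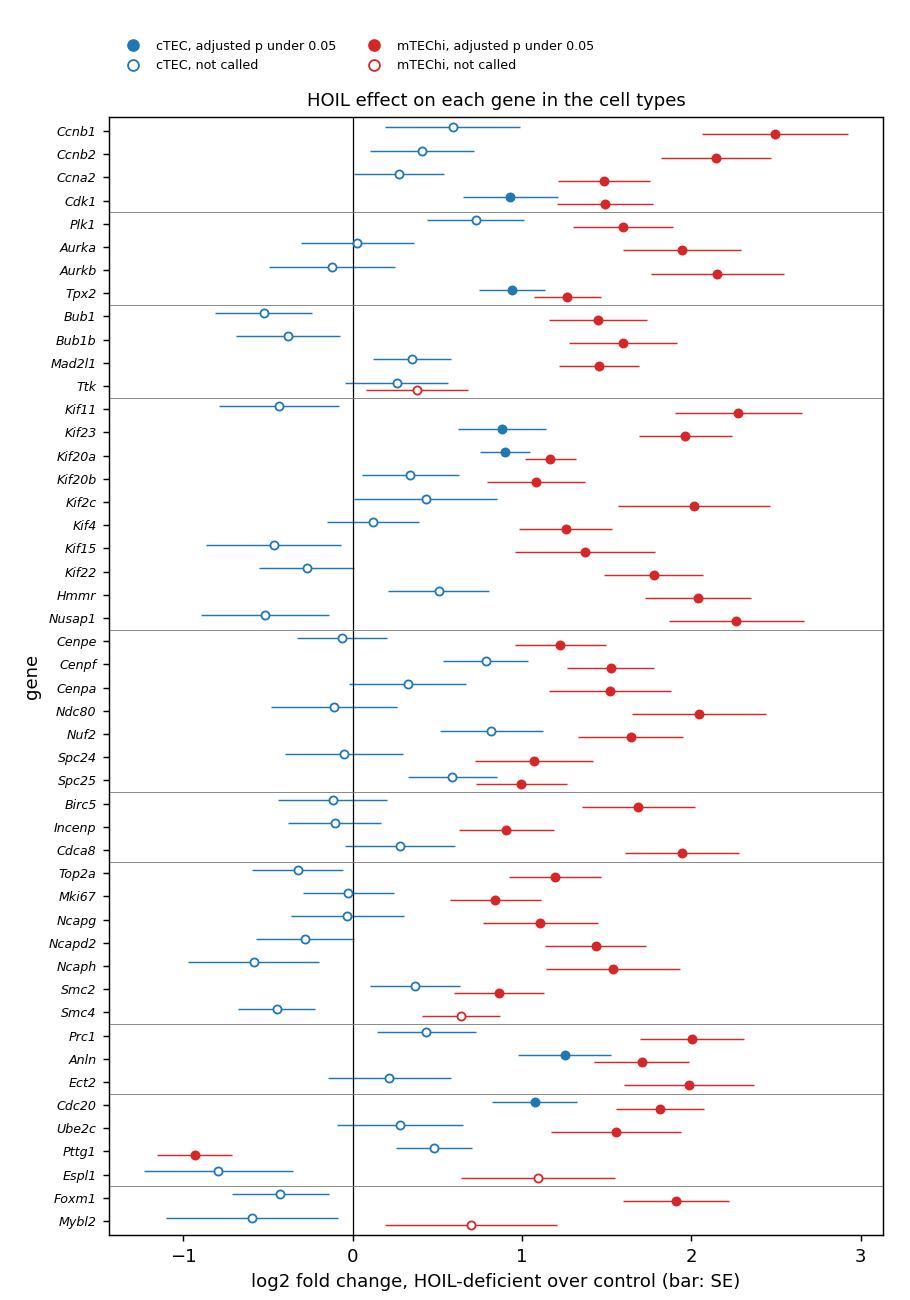
Points give the log2 fold change of each gene, HOIL-deficient over control, in cTEC (blue) and mTEChi (red), with bars of 1 standard error; filled points passed the test and open ones did not. In mTEChi the points lie right of 0 for every gene except Pttg1, with Ccnb1 farthest right at 2.49, and in cTECs they scatter on both sides of 0.

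Of the centromere and kinetochore genes 7 of 7 rose. Cenpe, the motor that moves chromosomes to the spindle equator, was at 21.2, 18.5 and 18.6 CPM in controls and 48.3, 58.7 and 36.4 CPM in HOIL-deficient mTEChi (log2 fold change 1.23 ± 0.27, adjusted p = 0.00687). Ndc80, the microtubule-binding subunit of the outer kinetochore, was at 6.55, 7.76 and 8.1 CPM and 27, 47.3 and 22.2 CPM (log2 fold change 2.04 ± 0.39, adjusted p = 0.00343). The control libraries of both genes lay close together, and the spread was on the HOIL-deficient side. Its partners in the Ndc80 complex had smaller log2 fold changes, 1.64 for Nuf2, 1.07 for Spc24 and 1.00 for Spc25. Differences between these 4 subunits were not tested, and the call for Spc24 was lost in each of the 6 fits that left out 1 library, while that for Spc25 held in 3. Cenpa, the histone H3 variant of centromeres, and Cenpf, a kinetochore protein of G2 and mitosis, both had a log2 fold change of 1.52.

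All 3 chromosomal passenger genes, 6 of 7 condensin and chromosome genes and 3 of 3 cytokinesis genes rose. Birc5, which encodes survivin, was at 19.2, 24 and 25.3 CPM in controls and 78.4, 87.3 and 64.2 CPM in HOIL-deficient mTEChi (log2 fold change 1.69 ± 0.33, adjusted p = 0.00379). Its partners Cdca8 (borealin) and Incenp had log2 fold changes of 1.94 and 0.91, the latter called in 1 of the 6 fits that left out a library. Top2a, the topoisomerase that untangles sister chromatids, went from 46.2, 39.3 and 48.8 CPM to 110.5, 131 and 80.6 CPM (log2 fold change 1.20 ± 0.27, adjusted p = 0.00828). Mki67, the proliferation marker Ki-67 that coats mitotic chromosomes, was at 48.2, 35.7 and 37.7 CPM and 89.9, 68.9 and 70.9 CPM (log2 fold change 0.84 ± 0.27, adjusted p = 0.0412). The groups were separate for Mki67, yet its log2 fold change was the smallest among the 43 risers and its call held in 1 of the 6 fits that left out a library. Among the condensin genes Ncapd2, Ncapg, Ncaph and Smc2 rose, by 1.43, 1.11, 1.54 and 0.86 on the log2 scale, with Smc2 lost in every fit that left out a library and Ncapg held in 2. Smc4, the other core condensin ATPase, was not called, at 86.6, 68.9 and 83.6 CPM in controls and 115, 152 and 126 CPM without HOIL (log2 fold change 0.64 ± 0.23, adjusted p = 0.0635). Prc1, which bundles the central spindle, went from 13.5, 23.3 and 22.4 CPM to 88.9, 96.6 and 60.3 CPM (log2 fold change 2.00 ± 0.31, adjusted p = 0.00099). Ect2, the RhoA activator of the contractile ring, and Anln, the ring scaffold anillin, rose by 1.99 and 1.71 on the log2 scale.

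The anaphase genes split. Cdc20, the activator of the anaphase-promoting complex, went from 13.6, 30.1 and 27.1 CPM in control to 98.1, 80 and 78.7 CPM in HOIL-deficient mTEChi (log2 fold change 1.82 ± 0.26, adjusted p = 0.000623). Ube2c, its ubiquitin-conjugating enzyme, was at 23.8, 44.7 and 38.7 CPM and 107, 130.4 and 87.6 CPM (log2 fold change 1.55 ± 0.38, adjusted p = 0.0123). Espl1, which encodes separase, had a log2 fold change of 1.09 ± 0.45 and was not called (adjusted p = 0.104), with control libraries at 1.33, 3.52 and 4.51 CPM and HOIL-deficient ones at 6.31, 4.48 and 9.74 CPM. Pttg1, which encodes securin, the inhibitor of separase, was the 1 gene of the module that fell. Its control libraries read 155, 93.3 and 124 CPM and its HOIL-deficient libraries 52.8, 72.7 and 80.9 CPM, so it fell by 0.93 ± 0.22 on the log2 scale (adjusted p = 0.0108). Control replicate 1, at 155 CPM, was the highest of all 12 libraries for Pttg1 while it was the lowest control mTEChi library for 34 genes of the module. Without that library the log2 fold change was -0.70 (adjusted p = 0.0514), and without HOIL-deficient replicate 1 it was -0.77 (adjusted p = 0.052), so the call was lost in both. Over all alternatives the adjusted p ranged from 0.00042 to 0.052.

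Of the transcription factors, Foxm1, the forkhead activator of G2 and mitosis genes, rose from 2.25, 4.45 and 4.74 CPM to 17.5, 12 and 15 CPM (log2 fold change 1.91 ± 0.31, adjusted p = 0.0014). Mybl2, which encodes B-MYB, was not called, at 3.58, 5.89 and 4.86 CPM in controls and 10.9, 7.01 and 6.31 CPM without HOIL (log2 fold change 0.70 ± 0.51, adjusted p = 0.362). Its HOIL-deficient libraries lay above the controls, but the difference did not pass the test. Of the 44 calls in mTEChi, 33 held in every one of the 6 fits that left out a library and under every other alternative. Between 34 and 38 genes were called higher when 1 mTEChi library was left out, with 34 in the absence of control replicate 1, and 39 were called higher with males only. The endothelial markers, which the CD31-negative gate should remove, were higher in HOIL-deficient mTEChi in 11 of 15 cases, their sum ranging from 126 to 173 CPM in controls and from 325 to 884 CPM without HOIL. Fibroblast and pericyte markers summed to 409 to 472 CPM in controls and 794 to 1042 CPM without HOIL, with 3 of 15 called higher. Neither list had a gene at 0 in all mTEChi libraries, and the part of these cells, of mitochondrial RNA or of Malat1 in the rise of the module was not tested. Thymocyte markers gave 0 of 26 calls in mTEChi by edgeR, with 1 at an unadjusted p under 0.05 and 0 called by DESeq2.

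**Figure D3:**
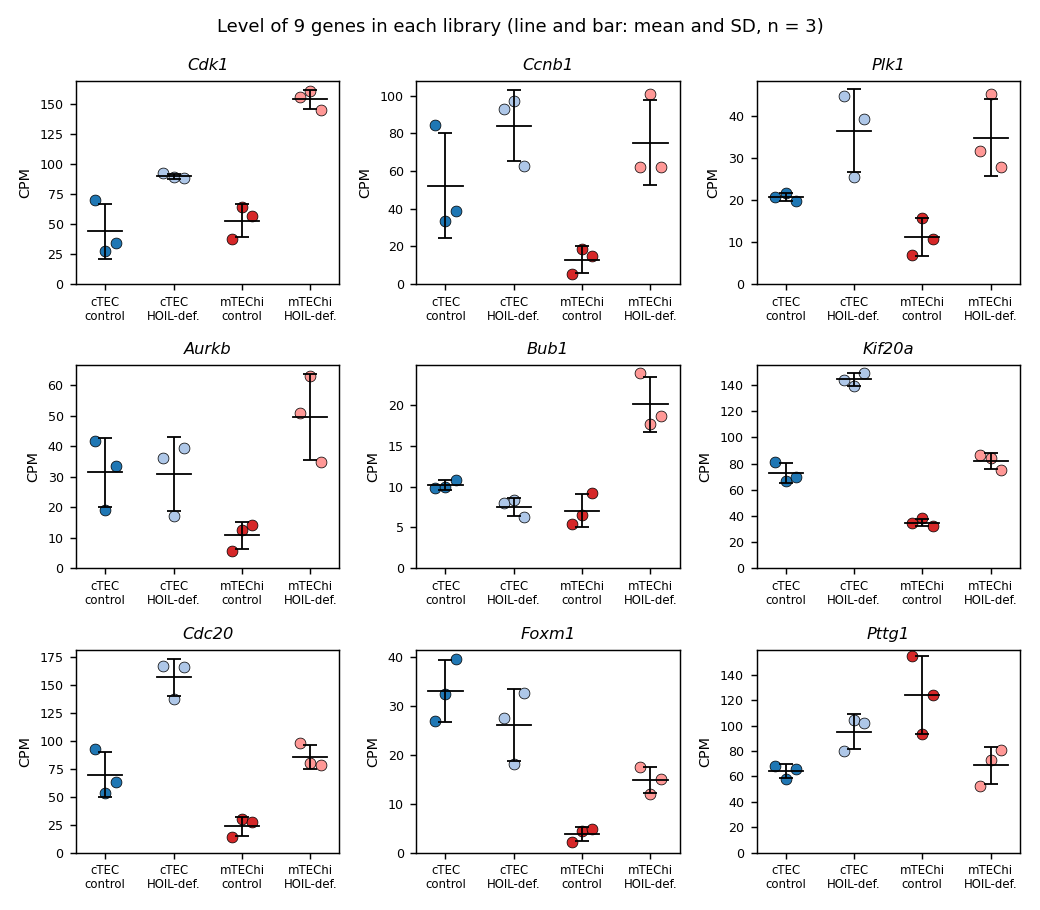
Each panel shows the CPM of 1 gene in every library of the 4 groups, with a line at the mean and a bar of 1 SD (n = 3). Cdk1, Ccnb1, Plk1, Aurkb, Bub1, Kif20a, Cdc20 and Foxm1 were higher in all HOIL-deficient than in all control mTEChi libraries, and Pttg1 was lower; in cTECs only Cdk1, Plk1, Kif20a, Cdc20 and Pttg1 of these 9 had every HOIL-deficient library above every control.

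HOIL-deficient cTECs had more RNA of a few of these genes. Kif20a, Tpx2, Anln, Cdc20, Kif23 and Cdk1 rose, 6 of 48, none fell, and 42 were not called. Over all tested genes 6.06% were called higher and 6.02% lower. At an unadjusted p under 0.05 edgeR gave 11 of the 48 higher and 0 lower. Over all 19398 tested genes 5217 passed that limit in either direction, a larger share than in the module. DESeq2 called 8 of the 48 higher and 0 lower, against 1786 higher and 1529 lower over all tested genes. The median log2 fold change was 0.24, against -0.02 over all tested genes. In 12 genes every HOIL-deficient cTEC library lay above every control (15.9% of all tested genes did so), and in 2, Bub1 and Espl1, every one lay below (12% of all genes).

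The cTEC genes that rose belong to different steps of division. In the annotation the span of Kif20a overlaps Brd8 and Cdc23, that of Cdc20 overlaps Elovl1 and that of Anln overlaps 9530077C05Rik. Kif20a, the central spindle motor, was at 81.1, 66.6 and 70 CPM in control and 144, 139 and 149 CPM in HOIL-deficient cTECs (log2 fold change 0.90 ± 0.15, adjusted p = 0.002). Tpx2, the Aurora A activator, was at 75.6, 46 and 48 CPM and 116, 116 and 116 CPM (log2 fold change 0.94 ± 0.19, adjusted p = 0.00724). Both had nearly identical HOIL-deficient replicates, and these 2 were the genes whose call held in all 6 fits that left out a cTEC library. Anln, the contractile ring scaffold, rose from 25.6, 18.6 and 14.5 CPM to 52, 49.8 and 47.7 CPM (log2 fold change 1.25 ± 0.28, adjusted p = 0.0104), and Cdc20 from 92.6, 53.8 and 63.1 CPM to 167, 138 and 166 CPM (log2 fold change 1.07 ± 0.25, adjusted p = 0.0139). Kif23 stood at 45.7, 27.6 and 30.4 CPM in controls and 66.7, 69.7 and 67.6 CPM without HOIL (log2 fold change 0.88 ± 0.26, adjusted p = 0.0411). Cdk1 stood at 70.4, 27.5 and 34.1 CPM and 92.1, 88.9 and 88.5 CPM (log2 fold change 0.93 ± 0.28, adjusted p = 0.0451). The Kif23 and Cdk1 calls held in 1 of the 6 fits that left out a library, the one without control replicate 1. At the other end of the ranking, Ncapg read 48.9, 17.1 and 27.4 CPM in controls and 32.9, 30 and 35.1 CPM without HOIL (log2 fold change -0.03 ± 0.33, adjusted p = 1), and Aurka 53, 19.5 and 24.5 CPM and 39.7, 36 and 30.4 CPM (log2 fold change 0.03 ± 0.33, adjusted p = 1). In both of these the HOIL-deficient values fell inside the range of the controls.

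Control cTEC replicate 1 was apart from the other controls in the module, in thymocyte RNA and in markers of some other cells. Fibroblast and pericyte markers summed to 1819, 269 and 651 CPM in control cTECs, haematopoietic markers to 1746, 563 and 781 CPM and erythroid markers to 436, 156 and 158 CPM. Endothelial sums, at 91.4, 45.2 and 85.5 CPM, and adipocyte sums, at 38.3, 21.3 and 47.7 CPM, did not set it apart. Replicate 1 was the highest control cTEC library for 43 of the 48 genes (89.6%) and for 26 of 26 thymocyte genes, where 42.5% of all tested genes with a symbol were highest in it. Lck, the T cell receptor kinase, was read there at 904 CPM against 295 and 435 CPM in replicates 2 and 3, and at 134, 92.7 and 216 CPM in HOIL-deficient cTECs. Cd3e, a T cell receptor subunit, read 191, 47.3 and 74.6 CPM in control and 31.3, 28 and 39.3 CPM in HOIL-deficient cTECs, and the coreceptor gene Cd4 110.1, 69.6 and 85.7 CPM and 23.2, 11.1 and 38 CPM. Rag1, the recombinase of immature thymocytes, read 157, 73 and 77.2 CPM and 20.2, 15.5 and 57.2 CPM, and Ptcra, the pre-T cell receptor chain, 23.6, 5.79 and 13.5 CPM and 3.43, 4 and 4 CPM. All 5 were highest in control replicate 1 and lower in every HOIL-deficient cTEC library than in every control. Of the 26 thymocyte genes, 21 fell in HOIL-deficient cTECs, and 8 were called lower without control replicate 1. The module summed to 3236, 1647 and 1956 CPM in control cTECs and 2947, 2801 and 2955 CPM in HOIL-deficient ones, so replicate 1 of the controls exceeded all HOIL-deficient cTEC libraries and the other controls lay under them.

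**Figure D4:**
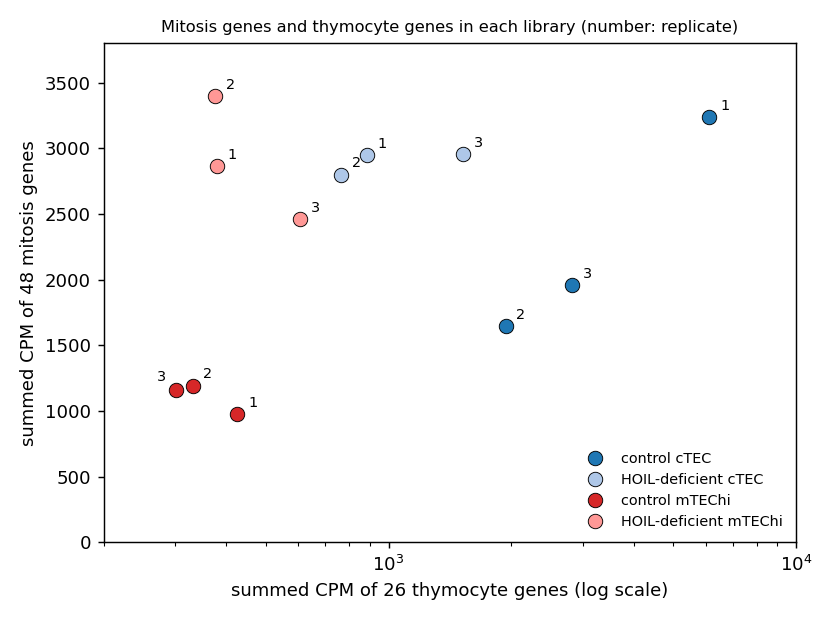
Each point is a library, with the summed CPM of the 26 thymocyte genes on a log axis and the summed CPM of the 48 mitosis genes on a linear axis, numbered by replicate. Control cTEC replicate 1 lies at the far right with 6126 CPM of thymocyte and 3236 CPM of mitosis genes, and the HOIL-deficient mTEChi libraries are high in mitosis genes at thymocyte sums between 375 and 608 CPM.

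The count of cTEC calls turned on that library. Without control replicate 1, 16 genes were called higher in HOIL-deficient cTECs, with Ccnb2, Ccna2, Hmmr, Cenpf, Cenpa, Nuf2, Cdca8, Smc2, Prc1 and Ube2c added to the 6, and the median log2 fold change of the module was 0.55. Leaving out control replicate 2 gave 3 genes and control replicate 3 gave 2, with each HOIL-deficient replicate giving 4. The share of all tested genes called without each library, or with the covariate below, is not given here. A move in these counts therefore cannot be read as particular to the module. With the thymocyte sum as a covariate in the 6 cTEC libraries, the median log2 fold change was 1.19 and 1 gene was called, Cdc20 (log2 fold change 1.88, adjusted p = 0.045). The thymocyte sums of the groups did not overlap, so covariate and genotype are only partly separable in that fit, and the adjusted p of Cdc20 ranged from 0.000597 to 0.061 over the alternatives. The part of thymocyte RNA in the control cTEC levels was not separated from that of the cTECs themselves. Foxm1, Plk1, Incenp, Bub1 and Ncapd2 were the 5 genes not highest in control cTEC replicate 1. Plk1 read 20.6, 21.7 and 19.7 CPM in controls and 44.6, 25.5 and 39.1 CPM without HOIL (log2 fold change 0.73 ± 0.29, adjusted p = 0.118), and Bub1 9.76, 9.95 and 10.8 CPM and 7.93, 8.4 and 6.26 CPM (log2 fold change -0.52 ± 0.29, adjusted p = 0.264). Endothelial markers rose in 14 of 15 cases in HOIL-deficient cTECs and fibroblast and pericyte markers in 9 of 15. Their sums were 45.2 to 91.4 CPM against 222 to 621 CPM for endothelium, and 269 to 1819 CPM against 3286 to 4735 CPM for fibroblasts and pericytes. Their part in the cTEC differences was not tested.

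Several other genes of the module had cTEC levels that overlapped between genotypes through control replicate 1 alone. Ccnb1 read 84.3, 33.4 and 38.8 CPM in controls and 92.7, 96.8 and 62.4 CPM without HOIL (log2 fold change 0.59 ± 0.40, adjusted p = 0.379). Ccnb2 read 115, 47.2 and 58.5 CPM and 106, 106 and 102 CPM (log2 fold change 0.41 ± 0.31, adjusted p = 0.435). Prc1, Ube2c and Hmmr had the same shape, with 89.6, 40.7 and 44.9, 112, 30.9 and 44.5 and 54.3, 23.3 and 30.3 CPM in the controls and 77.8, 97.9 and 77.9, 81.9, 94.6 and 66.8 and 50.4, 49.6 and 64.4 CPM in HOIL-deficient cTECs, in that gene order. In all 5, replicates 2 and 3 of the controls lay below every HOIL-deficient library and replicate 1 lay within or above their range. Birc5 and Ndc80 also had this shape. Birc5 read 91.6, 28.8 and 41.7 CPM in controls and 49.7, 48.5 and 62.4 CPM without HOIL, and Ndc80 43.1, 14.4 and 19.9 CPM and 26.8, 20.7 and 29.5 CPM. Kif11 and Top2a differed from it. Kif11 read 106, 37.4 and 51.6 CPM in controls and 43.2, 51.6 and 59.7 CPM without HOIL, and Top2a 152, 74.4 and 93.8 CPM and 101, 68.2 and 104 CPM. In both, every HOIL-deficient library lay below control replicate 1 and the HOIL-deficient values overlapped those of the other controls. Aurkb, Mad2l1, Cenpe and Mki67 read 41.7, 19.3 and 33.6, 77.9, 53.4 and 56.3, 53.5, 27.6 and 34.4 and 85.8, 40.2 and 59.4 CPM in the controls. Without HOIL these 4 read 36.4, 17.1 and 39.5, 86.9, 77.6 and 91.2, 38.6, 32.6 and 47.1 and 65.7, 49.9 and 79.3 CPM, and none was called (adjusted p = 0.922, 0.358, 0.966 and 1). Mybl2 read 8.47, 5.04 and 7.23 CPM and 7.82, 1.33 and 5.58 CPM, with replicate 2 of the HOIL-deficient cTECs its lowest library of all 12.

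The difference between the HOIL effects of the cell types was tested as an interaction. It was positive, that is larger in mTEChi, for 21 of the 48 genes and negative for 1, Pttg1, and 26 were not called. Over all tested genes 5.97% were called positive and 3.86% negative. The median difference was 1.28 on the log2 scale, against 0.09 over all tested genes. Foxm1 had the smallest p. It read 26.9, 32.4 and 39.6 CPM in control and 27.5, 18 and 32.7 CPM in HOIL-deficient cTECs (log2 fold change -0.43 ± 0.29, adjusted p = 0.372), and its effects differed by 2.34 ± 0.42, adjusted p = 0.0059. Kif11, Nusap1, Kif22 and Bub1 followed, with differences of 2.71 ± 0.51, adjusted p = 0.00721, of 2.78 ± 0.55, adjusted p = 0.00846, of 2.05 ± 0.40, adjusted p = 0.00866, and of 1.97 ± 0.41, adjusted p = 0.0101. In cTECs Nusap1 read 108, 34.1 and 52.9 CPM in controls and 42.9, 54.1 and 49.1 CPM without HOIL, and Kif22 70.5, 33.1 and 44.7 CPM and 44.8, 34.2 and 52.6 CPM. Each of these had a negative estimate in cTECs that was not called and a called rise in mTEChi. Pttg1 differed the other way, by -1.41 ± 0.31, adjusted p = 0.0146, with 68.5, 58.1 and 65.9 CPM in control and 79.7, 104 and 102 CPM in HOIL-deficient cTECs. At the other end stood Spc25 and Ttk, with differences of 0.41 ± 0.37 and 0.12 ± 0.43 (adjusted p = 0.523 and 0.93). In cTECs Spc25 read 132, 96.6 and 105 CPM and 190.3, 196 and 149 CPM, and Ttk 10.3, 7.05 and 10.1 CPM and 13.5, 7.99 and 13.7 CPM, in controls and without HOIL. The 6 genes that rose in cTECs had differences that were not called, from 0.27 for Kif20a to 1.08 for Kif23. Bub1, Bub1b, Kif11, Kif22, Nusap1, Foxm1 and Pttg1 were the 7 genes whose call held under every alternative. Leaving out 1 library in turn gave between 7 and 24 positive calls, with 7 in the absence of control mTEChi replicate 3, 8 without HOIL-deficient mTEChi replicate 2, 9 without control mTEChi replicate 1 and 12 without HOIL-deficient mTEChi replicate 1.

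Control mTEChi held less RNA of the module than control cTECs. Of the 48 genes, 34 were lower in control mTEChi, 1 was higher and 13 were not called. Over all tested genes 26.4% were called lower and 37.8% higher. The median log2 difference, mTEChi over cTEC, was -1.12 for the module and 0.24 for all tested genes. In 34 genes every control mTEChi library lay below every control cTEC library (31.6% of all genes), in 1 every one lay above (39.6%), and 13 overlapped. Foxm1 had the largest difference and the smallest p, with 26.9, 32.4 and 39.6 CPM in control cTECs and 2.25, 4.45 and 4.74 CPM in control mTEChi (log2 fold change -3.02 ± 0.32, adjusted p = 2.39e-06). Kif23, Kif20a and Kif11, whose values are given above, had the next smallest p, with differences of -1.90, -0.96 and -2.36 on the log2 scale. Smc4 read 321, 171 and 181 CPM in control cTECs (log2 fold change -1.40 ± 0.23, adjusted p = 0.00014). Pttg1 was the gene that was higher in control mTEChi (log2 fold change 1.06 ± 0.22, adjusted p = 0.000926). Mybl2 and Kif4 had the largest p (-0.45 ± 0.51 and -0.17 ± 0.27 on the log2 scale), with Kif4 at 25, 13.6 and 17.9 CPM in control cTECs and 16.9, 16.3 and 13.9 CPM in control mTEChi. Thymocyte genes moved the same way: 25 of 26 were lower in control mTEChi. Without replicate 1 of both control groups, chosen after seeing the data, 21 genes were called lower and 2 higher, with a median of -0.67.

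Between the HOIL-deficient groups the cell types were closer. Of the 48 genes, 4 were higher in mTEChi, 4 were lower and 40 were not called. Over all tested genes 32% were called higher and 16.4% lower, and the module's median of 0.35 stood beside 0.19 over all genes. In 9 genes every HOIL-deficient mTEChi library lay above every HOIL-deficient cTEC library (32.8% of all genes) and in 8 every one lay below (25%). Bub1 (log2 fold change 1.53 ± 0.29, adjusted p = 0.000521), Cdk1 (0.90), Kif4 (0.97) and Ncaph (1.10) were higher in mTEChi. Kif20a (log2 fold change -0.69 ± 0.15, adjusted p = 0.00127), Spc25 (-0.90), Kif23 (-0.81) and Cdc20 (-0.75) were lower. Kif4 read 22.5, 25.5 and 17.6 CPM in HOIL-deficient cTECs and 33.6, 50.2 and 34.5 CPM in HOIL-deficient mTEChi, and Spc25 190.3, 196 and 149 CPM and 69.7, 126 and 69.1 CPM. Ccnb2 and Cenpa had the largest p, and both were nearly level between the groups, with log2 differences of 0.03 ± 0.31 and -0.03 ± 0.34. Cenpa read 49.6, 51.6 and 46.8 CPM in HOIL-deficient cTECs and 45.3, 51 and 37 CPM in HOIL-deficient mTEChi, against 64.9, 19.1 and 25.9 CPM and 14.5, 13.7 and 16.2 CPM in the controls. With males only, 2 genes were called higher and 2 lower.

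Per kilobase of gene length (RPKM, from the lengths in the tables), the order of levels within the module differed between groups at the top. Spc25 led in control cTECs with a mean of 70.4 RPKM and in HOIL-deficient cTECs with 113 RPKM, where Ube2c (67.0 RPKM) and Cdc20 (88.1 RPKM) came next. In control mTEChi Pttg1 led with 71.3 RPKM and Ube2c followed with 38.3 RPKM. In HOIL-deficient mTEChi Ube2c led with 116 RPKM and Ccnb2 followed with 63.9 RPKM. Espl1 was the lowest gene in all 4 groups, at 1.60 and 0.987 RPKM in control and HOIL-deficient cTECs and 0.471 and 1.03 RPKM in control and HOIL-deficient mTEChi. The median gene of the module stood at 12.6, 14.8, 5.33 and 16.6 RPKM in the same order.

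Genes around the module give the rest of the pathway. Counts of calls in the lists below stand beside the shares of all tested genes. These were 11.3% higher and 8.59% lower in HOIL-deficient mTEChi, and 6.06% higher and 6.02% lower in HOIL-deficient cTECs. A further list of mitosis genes that are not in the module had 38 of 72 higher and none lower in HOIL-deficient mTEChi, with a median log2 fold change of 1.12. Racgap1, the partner of Kif23 in centralspindlin, went from 37.9 ± 4.08 to 111 ± 6.76 CPM (SD, n = 3; log2 fold change 1.49 ± 0.17, adjusted p = 0.000195). Melk, a mitotic kinase, had a log2 fold change of 1.69 ± 0.24 (adjusted p = 0.000624). The count was between 25 and 34 with 1 mTEChi library left out, and 25 without control replicate 1. In cTECs 3 of the 72, Melk, Knstrn and Ckap2, rose (log2 fold changes 1.28, 1.17 and 1.02), none fell, and 9 rose without control replicate 1. The 3 were 4.17% of the list, below the 6.06% of all tested genes.

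Subunits of the anaphase-promoting complex, the ligase that Cdc20 and Ube2c serve, were called higher in HOIL-deficient mTEChi in 4 of 16 cases. Anapc5 and Cdc23 had the smallest p (log2 fold changes 1.32 ± 0.17 and 1.33 ± 0.18, adjusted p = 0.00035 and 0.000412), and Cdc16 and Anapc4 were the others. Cdc23 overlaps Kif20a in the annotation. Of the MuvB, E2F and pocket protein genes, 7 of 19 rose in mTEChi and none fell. The count was 4 to 7 with 1 mTEChi library left out, with 4 in the absence of control replicate 2 or 3 or of HOIL-deficient replicate 1 or 2. Tfdp1, the dimer partner of E2F, and E2f8, an atypical E2F repressor, led with log2 fold changes of 1.25 ± 0.21 and 1.82 ± 0.31 (adjusted p = 0.00148 and 0.00171). In cTECs none of the 16 ligase genes was called by edgeR (1 at an unadjusted p under 0.05 and 0 called by DESeq2). E2f8 rose there (1.45), and E2f2, an activator E2F, and Rb1, the retinoblastoma protein gene, fell by 2.14 and 0.71 on the log2 scale, with E2f2 held in all 6 fits that left out a library and Rb1 in 1 of them. With the thymocyte sum as a covariate E2f2 was not called (log2 fold change -1.15, adjusted p = 0.551), and its adjusted p was between 7.24e-05 and that value over the alternatives.

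Most of the CDK inhibitors were lower in HOIL-deficient mTEChi. Of 9 inhibitors and inhibitory kinases 5 fell and 2 rose. With 1 mTEChi library left out 3 to 5 fell, with 3 in the absence of control replicate 1 or of HOIL-deficient replicate 1, and 1 to 2 rose, with 1 in the absence of control replicate 1 or 3 or of HOIL-deficient replicate 2. Cdkn1a, which encodes p21, fell from 484 ± 20.5 CPM in control to 139 ± 11.3 CPM in HOIL-deficient mTEChi (SD, n = 3; log2 fold change -1.87 ± 0.23, adjusted p = 0.000302). Cdkn1c, encoding p57, fell from 432 ± 8.03 to 225 ± 54.9 CPM (SD, n = 3; log2 fold change -1.01 ± 0.23, adjusted p = 0.00856). Both calls held in all 6 fits that left out an mTEChi library. Cdkn2b, Cdkn1b and Cdkn2a, encoding p15, p27 and p16 with p19Arf, fell by 1.26, 1.50 and 3.25 on the log2 scale, and their calls held in 5, 4 and 2 of the 6. Cdkn2c, encoding p18, and Wee1, the kinase that holds Cdk1 inactive, rose by 1.09 and 0.93 and held in 5 and 4. In cTECs none of the 9 was called by edgeR, with 2 at an unadjusted p under 0.05 and 1 called by DESeq2. Cdkn1a there was at 63 ± 21 CPM in controls and 54 ± 12.6 CPM without HOIL, and its effects in the cell types differed by -1.55 ± 0.32, adjusted p = 0.0108.

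Genes of the G1 and S phases rose in part in HOIL-deficient mTEChi. Of 9 G1 cyclins and kinases 3 rose and none fell in HOIL-deficient mTEChi. Cdk4, the partner of the D cyclins, went from 133 ± 26 to 308 ± 38.7 CPM (SD, n = 3; log2 fold change 1.16 ± 0.15, adjusted p = 0.00034), and Cdk2 and Ccne2 rose by 1.17 and 1.33 on the log2 scale. In cTECs the D cyclins changed unequally. Ccnd2 rose from 179 ± 66.5 to 610.2 ± 19.6 CPM (log2 fold change 1.69 ± 0.22, adjusted p = 0.000481) and Ccnd1 from 4.78 ± 1.21 to 19.4 ± 5.45 CPM (log2 fold change 1.92 ± 0.30, adjusted p = 0.00167), while Ccnd3 fell from 333 ± 149.6 to 135 ± 27.9 CPM (log2 fold change -1.40 ± 0.27, adjusted p = 0.00502). All 3 calls held in each fit that left out a cTEC library, and Cdk4 rose by 0.52 on the log2 scale with a call lost in every one of them. Over all alternatives, each D cyclin was called in 16 of 17. Their highest adjusted p was 0.173 for Ccnd2, 0.174 for Ccnd1 and 0.855 for Ccnd3. Ccnd3 is also a cyclin of developing thymocytes, whose markers fell in the same libraries, and the part of thymocyte RNA in its level was not separated from that of the cTECs. Of 40 DNA replication genes 19 rose and none fell in HOIL-deficient mTEChi, with a median log2 fold change of 0.91. The count was 12 to 17 with a library left out, and 12 without control replicate 1. Mcm4 and Mcm6, subunits of the replicative helicase, rose by 1.57 ± 0.21 and 1.74 ± 0.24 (adjusted p = 0.000413 and 0.00052). In cTECs 1 of the 40 was called, Uhrf1, a maintenance methylation factor, which fell by 0.92 on the log2 scale (adjusted p = 0.0355). Its call held in 2 of the 6 fits that left out a cTEC library and was lost in the absence of control replicate 1 or 2 or of HOIL-deficient replicate 2 or 3. The difference between the effects in the cell types was called positive for 12 of the 40 replication genes, with 7 in the absence of control mTEChi replicate 1, and for none of the 9 G1 genes, where it was called negative for Ccnd1 and Ccnd2.

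**Figure D5:**
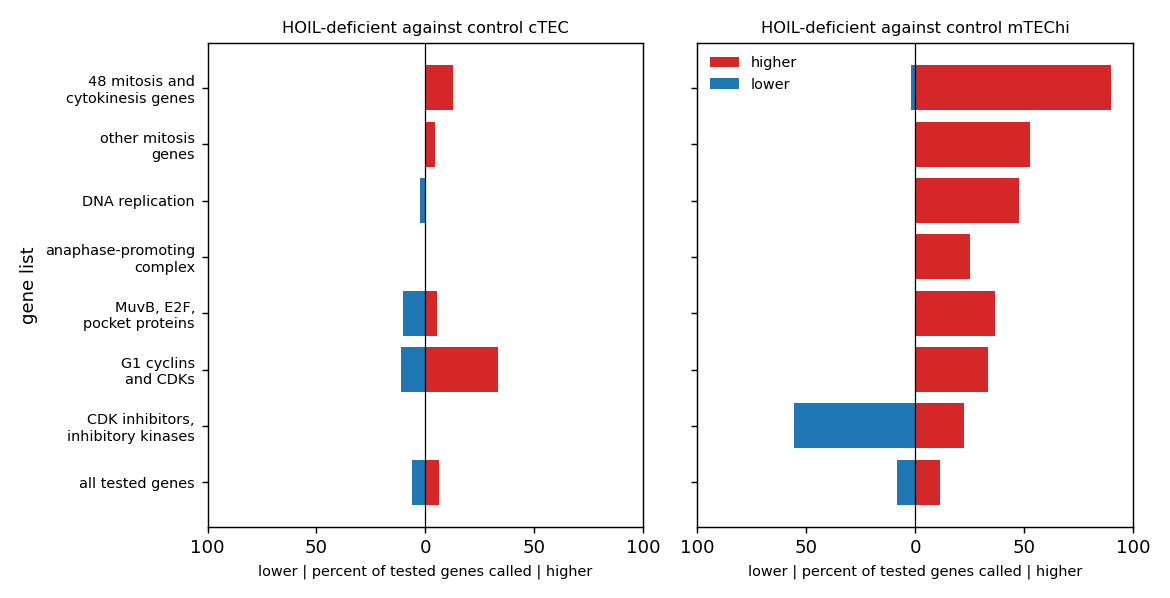
Bars give the percent of the tested genes of each list that were called higher (right, red) or lower (left, blue) in HOIL-deficient cells, for cTEC and mTEChi, beside all tested genes. In mTEChi the module has 43 of 48 higher, the other mitosis list 38 of 72 and the replication list 19 of 40, while the CDK inhibitor list has 5 of 9 lower.

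The defining markers of both labels were read in the sorted populations. By summed CPM, in which abundant genes weigh most, the cTEC markers set the cell types further apart than the mTEChi markers did. By the median log2 fold change, mTEChi over cTEC, the order was the other way. It was 5.52 for mTEChi and -4.72 for cTEC markers between controls, and 4.39 and -3.42 between HOIL-deficient groups. Between controls 10 of 12 mTEChi and 12 of 12 cTEC markers were called in these directions. Epithelial markers, 8 in number, summed to 15267 to 16859 CPM in control cTECs and 4678 to 6056 CPM in control mTEChi, with none at 0. The 12 cTEC markers summed to 54046 to 68714 CPM in control and 30763 to 32896 CPM in HOIL-deficient cTECs, where 9 fell and 1 rose, and to at most 4982 CPM in mTEChi. The 12 mTEChi markers summed to 25204 to 39914 CPM in control and 45382 to 51681 CPM in HOIL-deficient mTEChi, with 2 called higher and 3 lower. In cTECs these mTEChi markers summed to 18793 to 20835 CPM in controls and 15255 to 17275 CPM without HOIL, below every mTEChi library, of which control replicate 1 was the lowest at 25204 CPM. Among markers of other cells, edgeR called 9 of 10 haematopoietic genes in cTECs and 3 in mTEChi, all 9 of them lower in HOIL-deficient cTECs. In HOIL-deficient cTECs it called 1 of 9 B cell genes higher and 3 lower, 1 of 13 dendritic cell and macrophage genes higher and 1 of 7 erythroid genes lower. Over all tested genes 6.06% were called higher and 6.02% lower there. No gene of these lists was called in mTEChi, where 1, 1 and 0 passed an unadjusted p under 0.05 and DESeq2 called 0, 1 and 0. Haematopoietic sums were 2111 to 2349 CPM in control and 2273 to 2657 CPM in HOIL-deficient mTEChi, against 563 to 1746 and 258 to 446 CPM in cTECs. Dendritic cell and macrophage sums were 896 to 1342 and 995 to 1233 CPM in mTEChi, against 21.8 to 34.4 and 39.8 to 119 CPM in cTECs. All 7 tested adipocyte genes rose in HOIL-deficient cTECs, their sum going from 21.3 to 47.7 CPM in controls to 273 to 444 CPM, and 1 of 7 rose in mTEChi. The part of any of these other cells in the levels of the module was not tested.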

How the data were processed

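RNA from 12 libraries of flow-sorted thymic epithelial cells was measured, 3 in each of 4 groups, mTEChi being CD45-, TER-119-, CD31-, EpCAM+, MHC class II high, Ly51- and UEA1+, and cTECs MHC class II+, Ly51+ and UEA1-. Per the labels' protocols, cDNA came from a SMART-Seq v4 low-input kit and Nextera XT and was read in paired ends on a NextSeq instrument. The deposited values are raw counts per gene, made by the authors with featureCounts on mm10 per the submitters' processing notes; the aligner, strand setting and treatment of multimapping reads have no record in the labels or notes read here. Entrez identifiers were named through the RefSeq gene table, which gave 25275 of 27179 a symbol.

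The fit was edgeR 4.0.16 (R 4.3.3): TMM scaling, filterByExpr, 1 coefficient a group over all 12 libraries, robust quasi-likelihood F tests and Benjamini-Hochberg adjustment over 19398 genes, tested on simulated data. Standard errors were the log2 fold change over the root of F. The labels do not state that replicates are separate animals, so a p-value covers the spread among these libraries, which may be technical. Alternatives were RLE and upper-quartile scaling, other low-count filters, DESeq2 1.42.0, limma 3.58.1 with voom, fewer groups, a replicate block, males only, each library left out, and thymocyte level as a covariate.

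The genes and lists were chosen with earlier results of these data known. Library values were given for a set of 19 named genes and, in each comparison, for the 5 genes with the smallest and the 2 with the largest p, and the 2 genes with the smallest p were named in each other list; the remaining genes named from short lists were picked after their values were seen. Spans of 13 of the 48 genes overlap another gene of the tables. Whether their exons overlap was not examined, and without a stated strand setting reads from any shared stretch cannot be told apart.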

Additional observations from a re-analysis of the deposited data

Results flagged for a closer look

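The effect of HOIL deficiency differed between the cell types for 22 of the 48 genes by edgeR's test of the difference, where 5.97% of all tested genes were called positive and 3.86% negative. Each value below is the log2 effect in mTEChi minus that in cTECs. In 21 genes the effect was larger in mTEChi: 2.34 for Foxm1, 2.71 for Kif11, 2.78 for Nusap1, 2.05 for Kif22, 1.97 for Bub1, 1.98 for Bub1b, 2.27 for Aurkb, 1.72 for Ncapd2, 1.92 for Aurka, 2.15 for Ndc80, 1.52 for Top2a, 1.74 for Ccnb2, 1.80 for Birc5, 2.12 for Ncaph, 1.57 for Prc1, 1.66 for Cdca8, 1.53 for Hmmr, 1.29 for Cenpe, 1.77 for Ect2, 1.09 for Smc4 and 1.10 for Mad2l1. In Pttg1 the difference was -1.41, with a fall in mTEChi and an estimate above 0 in cTECs. Bub1, Bub1b, Kif11, Kif22, Nusap1, Foxm1 and Pttg1 kept their call under every alternative run, and the other 15 lost it under at least 1. The control mTEChi libraries carried more mitochondrial RNA and Malat1 than the HOIL-deficient ones, and the control cTEC libraries more thymocyte RNA, and the part of either in these differences was not tested.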

How the results depend on the processing

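No gene of the module that was called changed direction under any alternative. In HOIL-deficient cTECs the number called higher was 2 to 16 with 1 library left out, 1 with the thymocyte sum as a covariate and 17 without replicate 1 of both control groups, an alternative chosen after seeing the data. The share of all tested genes called in these fits is not given here. With that covariate Cd3e, a thymocyte gene, turned from a fall to a log2 fold change of 0.29 (adjusted p = 0.758). In mTEChi the number called lower was 0 to 1 with a library left out, and the number called higher stayed within 1.5 times of 43 under every alternative. For the difference between the cell types, 13 genes were called higher with limma-voom and 7 to 24 with a library left out. With replicate number as a block the count was 12, and 10 with number within genotype as the block. Deviations of same-numbered libraries from their group means had small correlations, from -0.037 to 0.098 between cell types and from -0.16 to 0.007 between genotypes. With 3 libraries a group, these values cannot show whether a number marks 1 animal or day. The block moved no other count of calls by over 1.5 times. Between the control cell types the 1 gene called higher became 2 with RLE scaling, 2 with upper-quartile scaling, 2 with DESeq2, 1 to 2 with a library left out, and 2 higher and 21 lower without replicate 1 of both control groups. Between the HOIL-deficient cell types the number called higher was 8 with DESeq2, 7 with limma-voom, 11 with only the compared groups in the fit and 2 with males only, and the number called lower was 2 with males only and 2 to 5 with a library left out. Over all genes, the HOIL effect in mTEChi gave 2191 higher and 1667 lower calls with TMM, 1748 and 1973 with RLE, 1708 and 1979 with upper-quartile factors and 2176 and 2565 with DESeq2. The difference between cell types gave 1159 and 749, 714 and 873, 651 and 899, and 1250 and 1452 in the same order. The median of all genes moved from 0.24 to 0.43 between control cell types and from 0.09 to -0.05 for the difference under RLE. The lowest single counts of the module were 13, in 1 library each for Espl1 and Mybl2, and 3 libraries a group limit every test.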
